A study of Mus musculus with 8 samples.

Results

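Imprinting control regions are short stretches of CpG-rich DNA at which methylation differs between the maternal and the paternal copy. The 15 regions described here were defined by position, as mm9 intervals named after the imprinted gene beside each: Peg3, Snrpn, Kcnq1ot1, H19, Peg10, Mest, Grb10, Zrsr1, Igf2r, Plagl1, Impact, Nnat, Gnas, Meg3 and Rasgrf1. They were chosen with earlier results of these data known. CpG positions with at least 10 reads in all 8 libraries were kept, which left 344 positions in the regions of 976938 in the whole series, and every region kept at least 3. The regions held 81 positions at Gnas, 51 at Zrsr1, 42 at Grb10, 40 at Plagl1, 32 at Nnat, 20 at Impact, 17 at Kcnq1ot1, 15 at Igf2r, 11 at Peg10, 10 at Snrpn, 8 at Meg3, 5 each at Peg3 and Mest, 4 at H19 and 3 at Rasgrf1.

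The regions lay on 9 chromosomes in mm9. Chromosome 7 held Peg3 at chr7:6679001-6684000, Snrpn at chr7:67147001-67151000, H19 at chr7:149766001-149769000 and Kcnq1ot1 at chr7:150480001-150483000. Chromosome 6 held Peg10 at chr6:4697001-4700000 and Mest at chr6:30686001-30690000, and chromosome 11 held Grb10 at chr11:11924001-11927000 and Zrsr1 at chr11:22871001-22875000. Chromosome 2 held Nnat at chr2:157385001-157388000 and Gnas at chr2:174119001-174127000. The others were Rasgrf1 at chr9:89767001-89775000, Plagl1 at chr10:12809001-12812000, Meg3 at chr12:110762001-110771000, Igf2r at chr17:12934001-12936000 and Impact at chr18:13130001-13133000. Exons, introns and UTRs were not analysed here, as the annotation at hand was of another build.

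In background, the methylated copy of such a region is set in the egg or the sperm and is then carried through cell division in nearly all body cells, with DNMT1 copying the mark and ZFP57 with TRIM28 guarding it in the early embryo. At many of these regions the unmethylated copy carries an active promoter, and at H19 it is the copy that the insulator protein CTCF binds. A methylation level between that of a fully methylated and a fully unmethylated stretch is therefore the known state of these regions in body tissues.

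The DNA came from kidney cortex and outer medulla of male wild type C57BL/6J mice and was profiled by reduced representation bisulfite sequencing, in which MspI cuts at CCGG and unmethylated cytosines of short fragments read as thymines. Of the 8 libraries, 2 came from kidneys after 7 days of unilateral ureteral obstruction (UUO) in mice given 5AZA, a DNA methyltransferase inhibitor, at 1 mg per kg per day by intraperitoneal injection in saline, 2 from UUO for 7 days with no 5AZA named in the labels, whose deposited tables are named for saline, and 1 from the UUO sham. Bilateral ischemia of 25 minutes gave 1 library after 1 week and 1 after 1 month of reperfusion, beside 1 library of its own sham. In UUO the left ureter was tied and cut, and sham mice had the surgery without ligation or clamping. Whether paired libraries of UUO and of UUO with 5AZA were separate mice is not given in the labels, so p-values measure only the spread between libraries. In whole tissue, a change in the mix of cells and a change within cells cannot be told apart.

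The libraries held 57853745 to 86411736 reads summed over CpG positions, of which 18587 to 32754 lay in the 15 regions. The level of a region in a library was the mean of the percent of methylated reads over its positions, each with equal weight. Per the labels' protocols, fragments were end-repaired in the presence of methylated dCTP, so positions were also split by place. A position counted as inside a fragment when its depth in the 8 libraries tied it to what lay on both sides, in a ratio of 1 or 2 either way, or with a cut site whose depth was the sum of both neighbours'. This put 214 of the 344 positions inside fragments, and the other 130 were fragment ends or could not be linked. The rule uses depth and no methylation value, and it was added after the data had been seen. A lone position whose depth equals the sum of both neighbours', as at Rasgrf1, cannot be told from a cut site by depth.

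Promoters of 3 genes could be placed in the regions by the spacing of their CpGs, and they show where in a sequence the high and the intermediate levels lay. Each sequence runs from 250 bases before to 50 bases after the gene's start, is from RefSeq in build GRCm38.p6, and has in capitals the CpGs that were measured. Plagl1 encodes a zinc finger factor that restrains growth, and its window was chr10:13090582-13090881 on the plus strand, with 14 of 26 CpGs measured. Zrsr1 encodes a splicing factor related to U2AF, with its window at chr11:22971755-22972054 on the plus strand and 7 of 10 CpGs measured. Commd1 encodes a protein of copper handling and endosomal sorting, in an intron of which Zrsr1 lies. Its window was chr11:22972817-22973116 on the minus strand, with 11 of 17 CpGs measured.
Plagl1: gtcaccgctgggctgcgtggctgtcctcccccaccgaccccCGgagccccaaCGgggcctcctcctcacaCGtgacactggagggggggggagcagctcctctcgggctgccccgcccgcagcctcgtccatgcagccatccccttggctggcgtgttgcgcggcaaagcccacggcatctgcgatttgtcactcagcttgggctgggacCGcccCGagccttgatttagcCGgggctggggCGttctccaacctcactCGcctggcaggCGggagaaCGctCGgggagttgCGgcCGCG
Zrsr1: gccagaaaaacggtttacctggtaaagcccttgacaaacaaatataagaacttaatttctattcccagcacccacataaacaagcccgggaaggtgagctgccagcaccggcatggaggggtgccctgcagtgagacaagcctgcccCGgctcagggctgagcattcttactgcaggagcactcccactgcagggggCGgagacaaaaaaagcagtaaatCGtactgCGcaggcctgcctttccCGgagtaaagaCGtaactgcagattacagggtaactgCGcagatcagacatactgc
Commd1: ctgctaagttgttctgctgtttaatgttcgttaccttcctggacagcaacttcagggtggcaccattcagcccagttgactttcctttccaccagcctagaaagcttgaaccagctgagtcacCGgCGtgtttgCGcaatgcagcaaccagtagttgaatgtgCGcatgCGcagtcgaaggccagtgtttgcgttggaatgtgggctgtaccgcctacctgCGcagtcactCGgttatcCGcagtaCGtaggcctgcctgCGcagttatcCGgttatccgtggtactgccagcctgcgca
The lowest coordinates of the Zrsr1 and Commd1 windows lay 1062 bp apart both in the RefSeq build and by the matched positions in mm9. By spacing alone, runs of up to 7 CpGs in the regions also matched promoters of unrelated genes on the same chromosome, so the placing of Zrsr1 rests on that distance as well. In these 3 promoters, the 6 measured CpGs that lie in a CCGG had a mean level of 82.0% over the 8 libraries, with a range of 73.1 to 88.2%, and none of them (0 of 6) was inside a fragment by depth. The other 26 measured CpGs had a mean level of 38.1%, with a range of 25.6 to 67.1%, and 23 of them were inside. The ranges of CpGs in and outside the MspI site did not overlap. The CpGs outside CCGG averaged 29.8% at Plagl1, 39.3% at Zrsr1 and 48.7% at Commd1.

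Motifs were searched on both strands in the 300 base promoters of the 15 genes, of which 12 genes had 22 windows in the RefSeq table. TGCCGC, the letters that ZFP57 binds when methylated, was present in 7 of the 22 windows, of the 6 genes Nnat, Mest, Snrpn, Plagl1, Grb10 and Meg3, and in 11.6% of all 32851 promoters. The Mest windows that hold it overlap each other, and all promoters were not matched to these windows in CpG content. CCGG was present in 12 of the 22 windows and in 52.8% of all promoters. The longer CTCF core motif, which can hold TGCCGC on its other strand, was in none (0 of 22) and in 0.0365% of all promoters. Most of these windows were not placed in the mm9 intervals, so the counts describe the genes' promoters and not the regions.

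Inside fragments, the regions sat at intermediate levels. The median over the 15 regions was 42.0%, where each region's value is its mean over the 8 libraries, and 194 of the 214 positions inside fragments (90.7%) lay between 30 and 70%. Outside the regions, 6.52% of 535548 positions inside fragments lay in that range, and the median position inside fragments was at 41.0% in the regions and 1.86% outside. Over all measured positions the region median was 52.8%, since the 130 ends and unlinked positions had a median of 83.3%. Levels and differences are over all positions unless said to be inside fragments, so they take in the ends.

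The 12 maternally methylated regions lay close together, between 36.2 and 46.9% inside fragments, with a median of 41.1%. Plagl1 was the lowest of them at 36.2% ± 4.38 (SD, n = 8 libraries), with Kcnq1ot1, whose region is the promoter of a long noncoding RNA that silences its neighbours, at 37.8% ± 12.2 and Zrsr1 at 38.3% ± 5.47. Impact, which encodes a regulator of translation under stress, was at 38.9% ± 4.59, Snrpn, which encodes a spliceosome protein, at 39.9% ± 11.6, and Igf2r, which encodes the receptor that clears IGF2 and holds the Airn promoter in its region, at 40.2% ± 6.56. Grb10, which encodes an adaptor that dampens insulin and IGF signalling, was at 42.0% ± 6.34, and Nnat, which encodes neuronatin, at 42.7% ± 5.44. Gnas, which encodes the stimulatory G protein alpha subunit, was at 44.0% ± 4.80, Peg10, derived from a retrotransposon, at 44.3% ± 5.41, Peg3, which encodes a zinc finger protein, at 44.9% ± 10.7, and Mest, which encodes a hydrolase-like protein, at 46.9% ± 2.67. Neighbours in this order differed by less than their spread over libraries, and the SDs span the study's groups as well as its libraries.

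**Figure D1:**
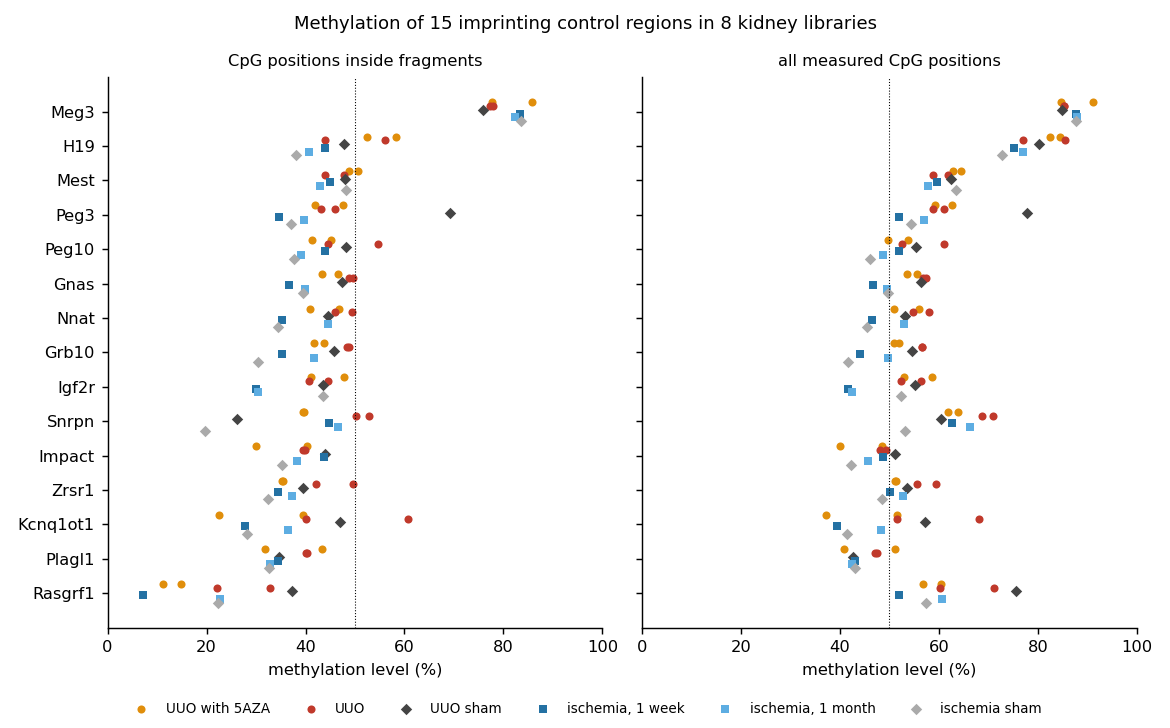
Methylation level (x axis, percent) of each region (y axis, ordered by the mean level inside fragments) in each of the 8 libraries, over positions inside fragments on the left and over all measured positions on the right. Each point is 1 library, colored by group, and the dotted line marks 50%. Inside fragments, the maternally methylated regions averaged 36.2 to 46.9%, while Meg3 sat at 80.5% and Rasgrf1 at 21.3%.

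The 3 paternally methylated regions lay apart from each other. H19, the noncoding RNA gene beside Igf2, was at 47.6% ± 7.31 over its 1 position inside a fragment. That position, 149767135 on chromosome 7 in mm9, was read 25 to 130 times per library, and its lowest library was at 38.1% and its highest at 58.2%. Rasgrf1, which encodes an exchange factor for Ras, was at 21.3% ± 10.3 over 1 position with 54 to 88 reads. Meg3, a noncoding RNA gene of the Dlk1 domain, was at 80.5% ± 3.67, but this mean joined fragments that differed. Its position 110763965 averaged 38.5%, with a range of 28.0 to 53.5% over the libraries, while 3 positions from 110764904 to 110764928 averaged 94.5%, with a range of 89.6 to 98.7%. The Meg3 level thus rests on 2 fragments that lie far apart in level.

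Within a fragment, the CpGs of a region had nearly the same level in a library. Over the 32 fragments of the regions with at least 3 positions inside and a mean level of 30 to 70%, the SD over positions within a library had a median of 2.31 points, where a point is 1 percentage point. Over the 4336 fragments outside the regions chosen by the same levels, it had a median of 12.7 points, and 0.461% of them were at or below 2.31. The median number of reads summed over the 8 libraries was 624 per position in the regions and 435 outside. Positions of 1 fragment share reads, and the part of depth in this gap was not tested. At Peg10 the 9 positions inside its fragment had means of 43.8 to 45.0%. At Peg3 the 3 positions had means of 44.6 to 45.3%. The widest of the 32 was a Gnas fragment from 174123527 to 174123639, with an SD of 11.6 points and a mean level of 61.0%, and 43.5% of the fragments outside were no wider than it.

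**Figure D2:**
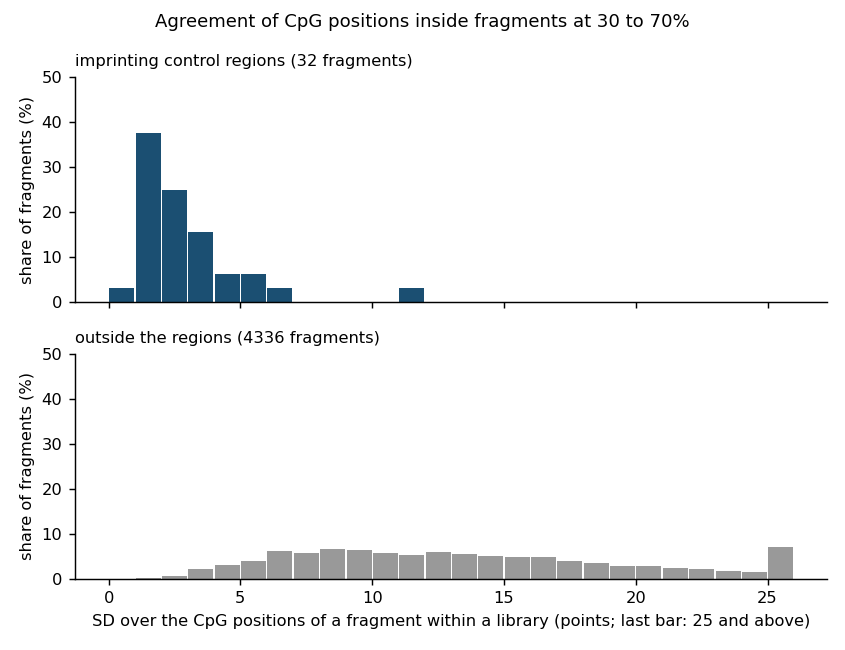
Histogram of the SD over CpG positions of a fragment within a library (x axis, points, averaged over the 8 libraries) as the share of fragments (y axis, percent), for the 32 fragments of the regions above and the 4336 fragments outside below. The medians were 2.31 points in the regions and 12.7 points outside.

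Fragments of the same region could differ by more than the positions inside them. At Plagl1 the 8 positions from 12810630 to 12810686 averaged 26.7%, and the 10 positions from 12810699 to 12810780 averaged 41.0%. At Zrsr1 the 5 positions from 22872609 to 22872749 averaged 22.4%, while the 3 from 22872855 to 22872876 averaged 46.4%. The former ranged over the libraries from 12.2% in 5AZA library 2 to 49.1% in UUO library 1, with UUO library 2 at 24.5%. At Grb10 the first fragment averaged 34.9% and the other 3 averaged 44.0 to 45.2%. Steps of this kind lie between fragments, which are amplified and read separately, and their source was not tested.

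**Figure D3:**
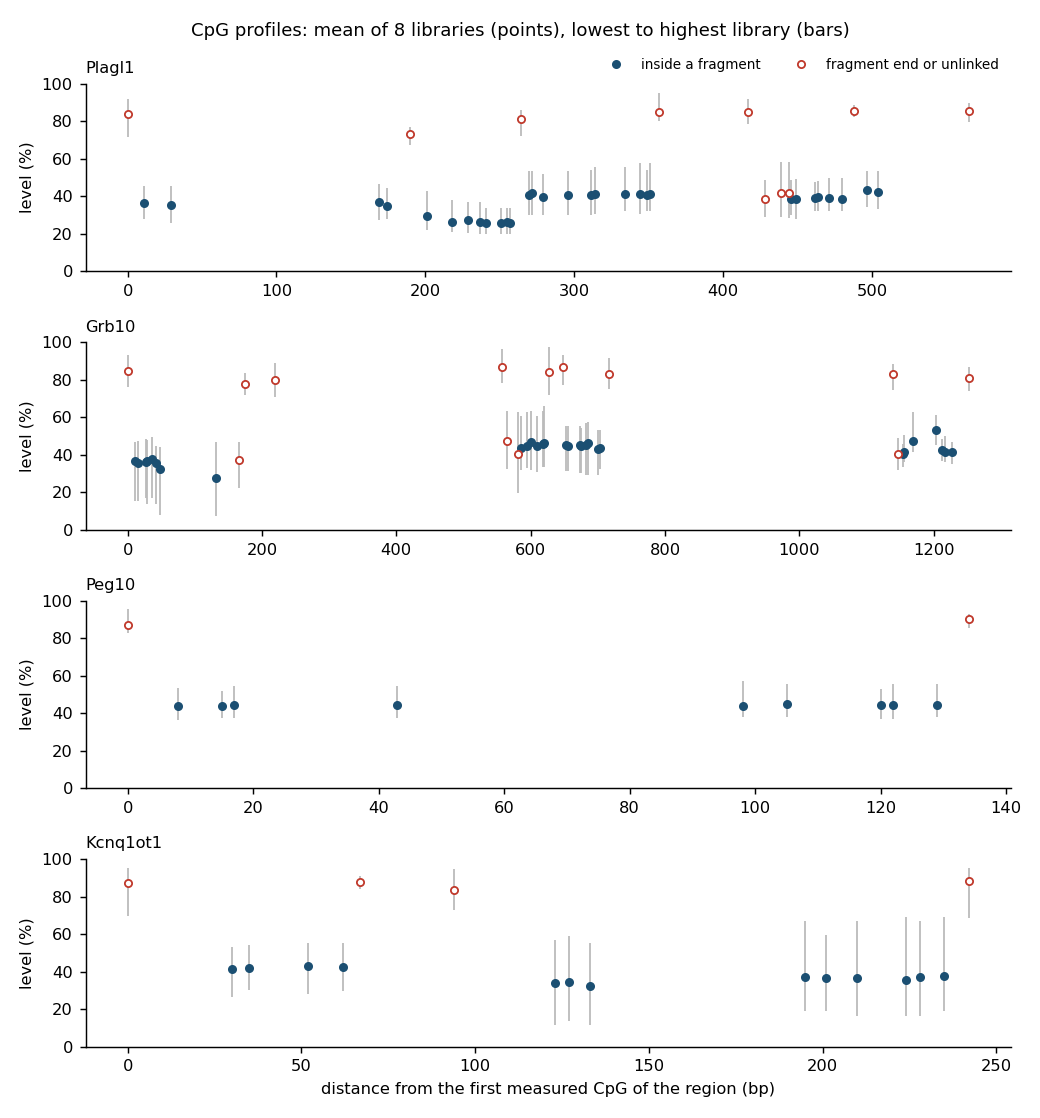
Mean level over the 8 libraries (y axis, percent) of each measured CpG against its distance from the first measured CpG of the region (x axis, bp) at Plagl1, Grb10, Peg10 and Kcnq1ot1. Filled points are inside fragments, open points are ends or unlinked, and bars run from the lowest to the highest library. The 9 filled points of Peg10 lie between 43.8 and 45.0%, while most open points lie well above the filled ones beside them.

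The DNA just outside the regions was less uniform. Windows of 1 kb within 10 kb of a region were measured inside fragments for 7 of the regions, with 12 windows in all. The flanks averaged 4.22% at Grb10 and 1.15% at Zrsr1 in 1 window each and 2.37% at Nnat over 2 windows, which are far below the regions themselves. The flank at Peg10 was at 93.8%, far above the region. Flanks were close to the region's own level at H19, with 40.3% in 1 window, at Mest, with 52.7% over 2, and at Gnas, with 45.8% over 4.

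The spread between libraries was set beside counting error in and outside the regions. At the deepest position of each fragment with a level of 30 to 70%, the chi-square over the 8 libraries per degree of freedom had a median of 1.73 over 47 fragments of the regions and 1.57 over 17278 fragments outside. Between the 2 libraries of 5AZA in UUO, the mean chi-square per position was 1.36 over the 214 positions inside fragments of the regions. Between the 2 of UUO it was 1.39. Over the series it was 1.18 for 852671 positions in the 5AZA pair and 1.23 for 867453 in the UUO pair. The positions of the series were not matched to those of the regions in place or level. Positions of 1 fragment share reads, so in these means over positions they are not separate units. The chi-square spans the groups and takes PCR copies as separate reads. The median region level inside fragments was 42.0 and 41.6% in UUO with 5AZA, 46.0 and 45.9% in UUO, and 45.8% in the UUO sham. It was 35.3% after 1 week of ischemia, 39.7% after 1 month, and 35.3% in the ischemia sham. The UUO sham was thus higher than all 3 libraries of the ischemia experiment.

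UUO against its sham asked whether obstruction moved these regions. No region was called (0 of 15), where a call needed a limma adjusted p below 0.05 (Benjamini-Hochberg over 93719 features, the 15 regions and 93704 windows of 1 kb) and at least 10 points. The share called among all features was 0.00107%, or 1 feature, which became 206 with only the groups compared and 512 with both shams as 1 group. With edgeR and with a quasi-binomial model it was also 0 of 15, and 3 of 15, Peg3, Snrpn and Zrsr1, had an unadjusted limma p below 0.05, against 7.03% of all features. The median difference over the regions was 0.49 points, and over the windows outside it was 0.63 points, or 2.82 points over those at 30 to 70%. Both UUO libraries were above the sham at 7 regions and both below it at 4, where 46.4% and 24.2% of all features did so.

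Peg3 differed most. Over all positions it was at 61.0 and 58.8% in the UUO libraries, and at 77.8% in the UUO sham. The sham library stood above all other libraries at Peg3, whose next highest value was 62.7% in a 5AZA library. The difference was -17.8 points (SE 3.83, limma adjusted p = 0.315). At its deepest position inside the fragment, 36 of 54 reads of the sham were methylated, or 66.7% (95% exact binomial interval 52.5 to 78.9%, which covers counting error only). In the 2 UUO libraries the same position was at 44.2 and 44.9%, and in the ischemia sham it was at 39.8%. Over the positions inside the fragment, the Peg3 difference of UUO from its sham was -24.4 points.

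Rasgrf1 was at 60.2 and 71.0% in UUO against 75.6% for its sham, and differed by -10.6 points (SE 5.66, limma adjusted p = 0.803). Both UUO libraries were below the sham, but the difference was -4.52 points without UUO library 1 and -15.4 points without UUO library 2. Snrpn was at 70.8 and 68.7% in UUO against 60.4% for its sham, and differed by 9.34 points (SE 2.44, limma adjusted p = 0.409). Inside its 1 fragment Snrpn was at 52.9 and 50.2% in UUO and at 26.1% in the UUO sham, with 94, 44 and 56 reads. With at least 20 reads required in every library, which leaves out that fragment, the Snrpn difference turned to -6.63 points. The other 12 regions differed from the sham by -2.24 to 4.56 points.

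5AZA in obstructed kidneys asked whether a methyltransferase inhibitor lowered the regions. No region was called (0 of 15), and the share called among all features was 0.828%, of which falls alone made 0.825%. Of the 93719 features, 776 were called, against 0 without UUO library 1 or UUO library 2, 5883 without 5AZA library 1 and 2044 without 5AZA library 2. With edgeR and with the quasi-binomial model it was also 0 of 15, and 4 of 15, Grb10, Zrsr1, Gnas and Snrpn, had an unadjusted limma p below 0.05, against 26.7% of all features. The median difference over the regions was -3.28 points, beside -2.81 points over the windows outside and -4.07 points over the 15064 of these at 30 to 70%. Of the regions, 10 were below 0 and 5 above, where 84.5% of the windows outside and 84.1% of those at 30 to 70% were below 0. Inside fragments the median was -4.14 points over the regions, -1.14 points over all windows outside and -8.39 points over the 4256 at 30 to 70%, or -5.56 points over the 259 of these with 10 or more positions. Both 5AZA libraries were below both UUO libraries at 5 regions and above both at 1, where 53.5% and 3.82% of all features did so. The median was -1.53 points without UUO library 2 and -2.02 points without 5AZA library 1.

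Over all positions, Grb10 and Zrsr1 passed the adjusted p without reaching 10 points. Grb10 was at 51.9 and 50.8% with 5AZA, against 56.5 and 56.7% in UUO, a difference of -5.20 points (SE 0.802, limma adjusted p = 0.0421). Zrsr1 was at 51.1 and 51.3% with 5AZA, against 59.5 and 55.6% in UUO, a difference of -6.73 points (SE 1.26, limma adjusted p = 0.0457). Neither region's groups overlapped. With each fragment counted once at its deepest position, Zrsr1 was at 39.1 and 39.3% with 5AZA, against 47.7 and 40.7% in UUO. UUO library 2 was thus close to the 5AZA libraries there. Not all parts of Zrsr1 fell, as position 22874083 was at 44.3 and 39.6% with 5AZA, against 38.2 and 38.5% in UUO. At an adjusted p below 0.05 with no minimum difference, 1.68% of all features passed, and 1.58% did with a minimum of 5 points. Inside fragments Zrsr1 was at 35.2 and 35.5% with 5AZA, against 49.6 and 42.1% in UUO. That difference was -11.2 points (SE 2.32, limma adjusted p = 0.0855), which is past 10 points but not called. Grb10 inside fragments was at 43.8 and 41.6% with 5AZA, against 48.7 and 48.3% in UUO, with a limma adjusted p of 0.0960. Without UUO library 1 the Zrsr1 difference was -4.38 points (limma adjusted p = 0.282).

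Kcnq1ot1 had the widest gap, but its libraries did not repeat. It was at 51.5 and 37.1% with 5AZA, against 51.5 and 68.0% in UUO, a difference of -12.3 points (SE 5.40, limma adjusted p = 0.187). Library 1 of each group was at 51.5%, with the 5AZA library lower by less than these digits show, so the groups were just short of overlapping. Inside fragments the difference was -15.3 points (SE 6.05, limma adjusted p = 0.210). Without 5AZA library 1 the difference was -20.6 points and was called (limma adjusted p = 0.0191), and without UUO library 1, UUO library 2 or 5AZA library 2 it was -22.6, -6.02 and -6.28 points with no call. Snrpn was at 63.8 and 61.8% with 5AZA, against 70.8 and 68.7% in UUO, a difference of -6.92 points (SE 2.22, limma adjusted p = 0.0991). With reads summed over positions in place of equal weights, the Snrpn difference turned to 1.02 points. Meg3, H19, Mest, Peg3 and Igf2r were above UUO, by 0.89 to 3.31 points.

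**Figure D4:**
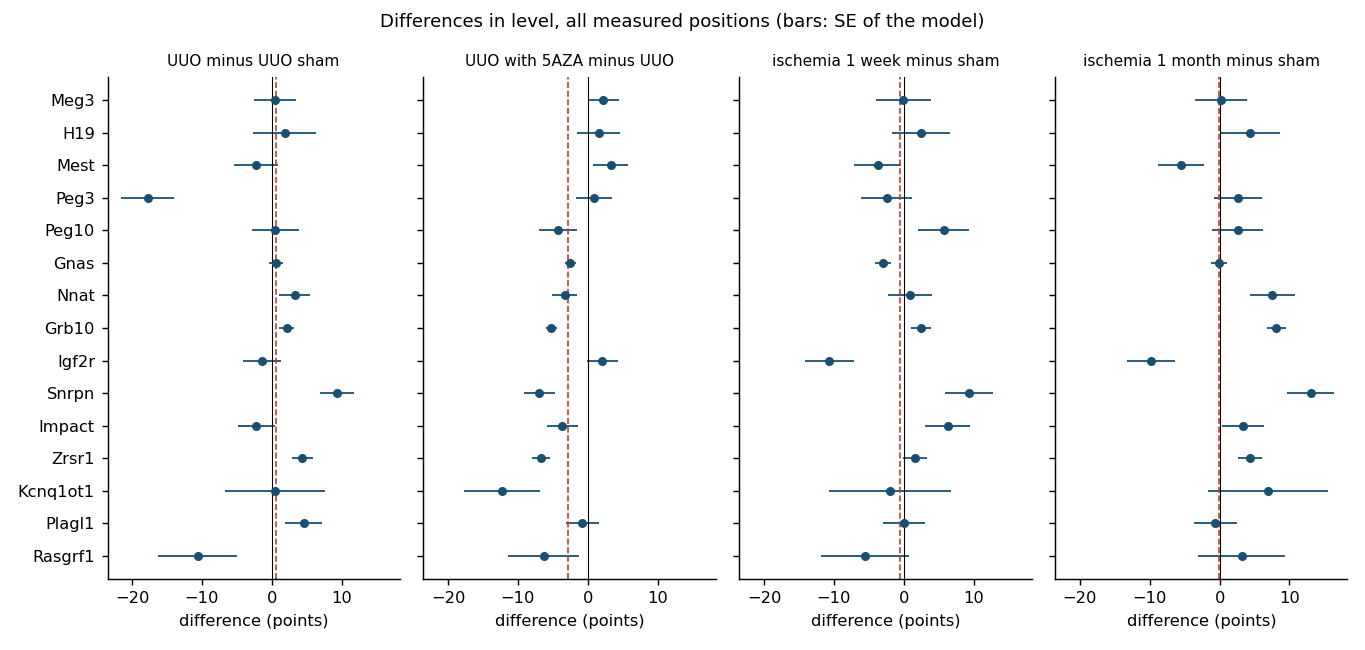
Difference in level (x axis, percentage points, over all measured positions) of each region (y axis) in the 4 comparisons, with the SE of the limma fit as bars. The solid line marks 0 and the dashed red line the median of the 93704 windows outside the regions, which was 0.63 points for UUO against its sham and -2.81 points for UUO with 5AZA against UUO. No point passed the call of an adjusted p below 0.05 with at least 10 points.

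Ischemia with 1 week of reperfusion was set against its own sham, with 1 library each, so the spread came from the UUO and 5AZA pairs. No region was called by limma, edgeR or the quasi-binomial model (0 of 15), and the share called among all features was 0%. An unadjusted limma p below 0.05 was found at 3 of 15 regions and at 4.1% of all features. The median difference was 0.05 points over the regions, -0.54 points over the windows outside and -0.69 points over those at 30 to 70%. The library was above the sham at 8 regions and below it at 7, where 40.2% and 59.7% of all features were. Igf2r was at 41.7% after 1 week, against 52.4% in the sham, a difference of -10.7 points (SE 3.50, limma adjusted p = 1), and inside fragments it was -13.5 points. Snrpn was at 62.6%, against 53.2% in the sham, a difference of 9.33 points (SE 3.46, limma adjusted p = 1). Impact was at 48.6%, against 42.3% in the sham, and differed by 6.29 points (SE 3.17, limma adjusted p = 1). At least 20 reads turned the Snrpn difference to -5.49 points.

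After 1 month of reperfusion no region was called either (0 of 15 by limma, edgeR and the quasi-binomial model), and the share called among all features was 0%. An unadjusted limma p below 0.05 was found at 5 of 15 regions and at 4.87% of all features. The median difference was 3.15 points over the regions, -0.07 points over the windows outside and 0.68 points over the windows outside at 30 to 70%. Inside fragments the median was 2.57 points over the regions, close to the 2.49 points over the windows outside at 30 to 70%, and 0.13 points over all windows outside. The library was above the sham at 11 regions and below it at 4, where 48.6% and 51.3% of all features were. Snrpn was at 66.2% after 1 month, against 53.2% in the sham, a difference of 13.0 points (SE 3.38, limma adjusted p = 0.986). Inside its fragment the Snrpn difference was 26.7 points at 1 month and 24.9 points at 1 week, while over all positions at 1 month it was 0.46 points with at least 20 reads and 6.69 points with reads summed over positions. Igf2r was at 42.5%, against 52.4% in the sham, a difference of -9.83 points (SE 3.50, limma adjusted p = 1). Grb10 was at 49.7%, against 41.6% in the sham, a difference of 8.12 points (SE 1.39, limma adjusted p = 0.741), and inside fragments it was 11.4 points. Both ischemia comparisons share the sham library. Over all positions at Igf2r this sham was near the UUO sham, at 55.1%, while at Grb10 it was the lowest of the 8 libraries. The fragments of Igf2r went opposite ways, however. From 12934464 to 12934606 the ischemia sham was the highest of the 8 libraries, at 52.2%, against 37.8% in the UUO sham. From 12935111 to 12935225 it was at 34.7%, against 49.2% in the UUO sham.

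The size of these differences can be set beside that between both shams. The ischemia sham was lower than the UUO sham at 12 of 15 regions, where 62.0% of the windows outside and 64.4% of those at 30 to 70% were lower. The median difference was -7.59 points over the regions, while the windows outside had a median of -0.76 points and those at 30 to 70% a median of -1.60 points. No region was called (0 of 15), the share called was 0% of all features (0.0032% with no minimum difference), and 8 of 15 regions had an unadjusted limma p below 0.05, against 4.46% of all features. Peg3 was at 54.4% in the ischemia sham and 77.8% in the UUO sham, which differed by -23.4 points (SE 4.37, limma adjusted p = 0.991). Rasgrf1 was at 57.5% in the ischemia sham and 75.6% in the UUO sham, and Kcnq1ot1 at 41.4% and 57.3%. Grb10 was at 41.6% in the ischemia sham and 54.5% in the UUO sham, or -12.9 points apart (SE 1.41, limma adjusted p = 0.145). The Grb10 gap between the shams was -15.4 points inside fragments, and whether its adjusted p fell below 0.05 depended on the alternative used. With both shams joined as 1 group, the median difference became 4.37 points for UUO, -3.38 points after 1 week and -1.53 points after 1 month of ischemia. For UUO, Peg3 then differed by -3.67 points, Rasgrf1 by -1.47 points and Snrpn by 11.7 points. After 1 week, Igf2r then differed by -12.3 points, Snrpn by 4.53 points and Impact by 1.41 points. After 1 month, Snrpn differed by 8.22 points, Igf2r by -11.4 points and Grb10 by 0.43 points.

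The effect of UUO over its sham minus that of ischemia over its sham was tested in the same fit. No region's difference of effects passed, with the lowest limma adjusted p over the 15 regions at 0.961 for 1 week and 1.00 for 1 month. Peg3 had the widest gap, at -15.3 points for 1 week (SE 5.30) and -20.4 points for 1 month (SE 5.13).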

How the data were processed

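RRBS tables of 8 mouse kidney libraries were analysed. MspI digestion and end repair with methylated dCTP are stated per the labels' protocols. The submitters' processing notes name Bowtie and mm9, with no methylation caller given in the sources used here. For each CpG, the deposited tables hold a count of reads and a count of methylated reads made by the authors, not normalized, and the level as a fraction, which the authors gave to 3 decimals. Groups came from sample titles. Positions with at least 10 reads in all 8 libraries were joined (Python 3.11.15, pandas 2.3.3). The features were the 15 regions and 93704 windows of 1000 bp outside them with at least 3 positions.

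Levels were fitted with limma 3.58.1 in R 4.3.3, with 1 mean per group, weights from effective reads and moderated variances, two-sided, and Benjamini-Hochberg adjusted. The spread came from the UUO and the 5AZA pairs, with 2 residual and 6.71 prior degrees of freedom, on the assumption that unreplicated libraries vary alike. Differences are those of the weighted fit, so they can deviate slightly from the gap between plain means. A call needed an adjusted p below 0.05 and 10 points. PCR copies are not told apart. Alternatives were other read minimums, an upper depth limit, fragment edges left out, summed reads, edgeR 4.0.16, a quasi-binomial model, other sets of libraries and shams, and other minimum differences. Inside-fragment values and a trended prior variance were chosen after seeing the data.

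All 15 regions are named. Values in every library of a comparison are given for the 3 regions with the largest absolute difference in it, and Grb10 in the 5AZA comparison was added after its values were seen. The regions, lists and tests were chosen with earlier results of these data known. Promoters were matched to positions by runs of CpG spacing over RefSeq windows of the same chromosome, and only those of genes named for or known at the region are shown. The promoter of Hymai overlaps that of Plagl1 and matched too. Parent-specific reads were not analysed here.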

Additional observations from a re-analysis of the deposited data

How the results depend on the processing

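The alternatives covered 12 named differences with 158 values, of which 153 kept their direction and their side of the call, 4 turned and 1 gained a call. None of the 12 was called in the main fit, so keeping the side meant staying uncalled. Many values could not move, as leaving out a UUO or 5AZA library does not enter the ischemia differences. Size was not part of the count: Grb10 at 1 month went from 8.12 to 0.43 points with both shams as 1 group. At least 20 reads in every library turned Snrpn to -6.63 points for UUO and -5.49 points for 1 week of ischemia, and summed reads, also in the quasi-binomial model, turned it to 1.02 points for 5AZA in UUO. The first leaves out the Snrpn fragment, which had 18 or 19 reads at its positions in the ischemia sham; the cause of the second was not tested. With positions inside fragments only, no region was called in any of the 4 comparisons. Of the regions, 2 passed in the 5AZA comparison with a minimum difference of 5 points and 2 with no minimum. Leaving out 1 library gave 0 to 1 called regions there, with medians of -3.53 to -1.53 points, and the one called was Kcnq1ot1.

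The median difference of UUO against its sham was 1.67 points inside fragments and 4.37 points against both shams as 1 group, and leaving out 1 UUO library gave -0.62 to 1.52 points. The 1 week median was -1.92 points with at least 20 reads, 1.71 points with fragment edges left out, -1.42 points with summed reads and -3.38 points against both shams. The 1 month median was -1.53 points against both shams. The difference between both shams was -6.14 points with at least 20 reads, -9.0 points with edges left out, -8.73 points inside fragments and -4.74 points with summed reads. The median level was 54.4% with at least 5 reads, 40.7% with edges left out (12 regions), 42.0% inside fragments and 54.2% with summed reads. The causes of these shifts were not tested, beyond the ends being higher than inside positions.

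The deviations of UUO 1 and 5AZA 1 from their group means had a correlation of -0.0116 over the windows, so no shift shared by replicate number was seen. This value cannot tell whether the libraries were paired by mouse or by handling. A replicate block in the 5AZA comparison gave 0 called regions and a median of -3.00 points, with 2107 features called in place of 776. Over all features that comparison had 49 calls with edgeR, 367 with the quasi-binomial model, 35 with summed reads, 53 with at least 5 reads, 1208 with at least 20 reads, 23 with edges left out, 57 inside fragments and 2414 with both shams as 1 group. UUO against its sham had 17 with the quasi-binomial model, 7 with edges left out and 9 inside fragments. With only the groups compared, the ischemia comparisons leave no residual degrees of freedom and gave no value. Depth was lowest at Snrpn and H19, whose lowest library had 19 and 25 reads inside fragments when each fragment was counted once, and at Peg3 and Rasgrf1, whose lowest library had 54. At Peg3 that library is the UUO sham.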
